A study of Rattus norvegicus with 12 samples.

Results

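The cytosolic ribosome is built from ribosomal RNA and the ribosomal proteins of the small (40S) and large (60S) subunits, here called the Rps and Rpl genes. The members were chosen by symbol: every row of the count table whose symbol is Rpl or Rps followed by a number, with or without a final a, l or x, or is Rplp0, Rplp1, Rplp2 or Rpsa. This gave 99 of 30560 rows, with 72 different symbols, and rows that share a symbol were kept apart. RNA came from formalin-fixed, paraffin-embedded blocks of the left ventricle of 12 male Wistar rats, 1 library per rat, and replicates are therefore separate animals. All rats had surgery at 7 weeks of age and daily oral gavage for 8 weeks. In 4 rats the coronary artery was not tied and vehicle was given (Sham). In 4 rats the left anterior descending coronary artery was tied to cause a myocardial infarction and vehicle was given (MI). In 4 rats the artery was tied and urolithin A, a gut microbial metabolite, was given at 50 mg/ml (MI + UA). This is a concentration and not a dose by body weight, and the study's Results and Methods differ on when treatment began. Vehicle was carboxymethylcellulose, and no rat carried a transgene. Tissue sections hold cells of several types, so fewer cells of a type and less RNA per cell cannot be told apart. By its label rat 66 received urolithin A, but it stands with the vehicle-treated MI rats in the study's echocardiography list, and it was analysed by its label.

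Ribosomal protein mRNAs belong to the most abundant messages of every growing cell, and most of their proteins are present once in each ribosome. They begin with a short run of pyrimidines, the 5' terminal oligopyrimidine (TOP) motif, through which the mTOR pathway sets how well they are translated. A few members have tissue-restricted paralogues. The best known in heart is Rpl3l, a copy of Rpl3 made in striated muscle, whose product takes the place of the Rpl3 protein in the large subunit. Rpl10l and Rpl39l are paralogues best known from the testis, and Rps27l is a p53-responsive paralogue of Rps27.

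The bases around the start sites show where the paralogue pair stands among the members. The RefSeq table (GRCr8) held 57 promoters of 56 member genes, Rps27a having a pair of entries, and each line gives 20 bases before and 20 bases after the annotated start, 5' to 3' on the gene's strand, with the longest pyrimidine run that touches the 5 bases on either side of the start in capitals. Rplp0, Rps2, Rpl10a and Rpl19 are shown as members with a run of at least 8. Rps3 and Rps6 have a short run at the annotated start, and Rpl3 and Rpl3l are the pair on which the results turn.
Rplp0 (chr12:46718371-46718410, minus strand): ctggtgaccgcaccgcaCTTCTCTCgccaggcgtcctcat
Rps2 (chr10:14251828-14251867, plus strand): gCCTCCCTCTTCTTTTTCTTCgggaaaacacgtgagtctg
Rpl10a (chr20:6390513-6390552, plus strand): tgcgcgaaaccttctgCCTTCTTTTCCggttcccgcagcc
Rpl19 (chr10:83519044-83519083, plus strand): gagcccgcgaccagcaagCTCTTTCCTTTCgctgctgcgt
Rps3 (chr1:163195757-163195796, minus strand): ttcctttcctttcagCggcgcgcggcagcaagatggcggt
Rps6 (chr5:106420521-106420560, minus strand): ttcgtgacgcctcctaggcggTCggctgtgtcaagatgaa
Rpl3 (chr7:113507971-113508010, minus strand): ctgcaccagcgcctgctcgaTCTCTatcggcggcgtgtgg
Rpl3l (chr10:14258426-14258465, plus strand): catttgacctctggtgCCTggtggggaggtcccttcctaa

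The run was 20 bases in Rps2, 12 in Rpl19, 11 in Rpl10a and 8 in Rplp0. It was 5 in Rpl3, 3 in Rpl3l, 2 in Rps6 and 1 in Rps3, and 19 of the 57 member starts had a run of 5 or less, so a short run is not particular to the pair. These lengths hold for the annotated start only, and whether that start is exact was not tested. In Rps3 a longer pyrimidine stretch ends just upstream of the bases searched and was not counted. A run of at least 8 was found at 33 of the 57 member starts (57.9%) and at 8.67% of all 33469 promoters in the table. The letters CCGGAAG, an ETS-factor motif sought on both strands between 250 bases before and 50 after the start, were in 29.8% of member promoters and 8.75% of all promoters. AAGATGGC, a YY1 motif, was in 7.02% of member promoters and 3.17% of all. TATAAA was in 12.3% and 14.2%. Overlaps between motifs were not removed. Median GC content was 56.7% in member promoters and 51.7% in all.

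The promoters of the pair are given from 250 bases before to 20 bases after the start. In Rpl3 the capitals mark TATAAA read on the other strand, and Rpl3l holds none of the 3 motifs.
Rpl3 (chr7:113507971-113508240, minus strand): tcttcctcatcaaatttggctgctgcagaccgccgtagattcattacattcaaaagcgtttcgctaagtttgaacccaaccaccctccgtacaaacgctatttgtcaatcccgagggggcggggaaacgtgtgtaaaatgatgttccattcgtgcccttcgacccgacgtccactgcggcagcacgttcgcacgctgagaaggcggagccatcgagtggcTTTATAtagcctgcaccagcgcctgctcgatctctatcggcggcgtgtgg
Rpl3l (chr10:14258196-14258465, plus strand): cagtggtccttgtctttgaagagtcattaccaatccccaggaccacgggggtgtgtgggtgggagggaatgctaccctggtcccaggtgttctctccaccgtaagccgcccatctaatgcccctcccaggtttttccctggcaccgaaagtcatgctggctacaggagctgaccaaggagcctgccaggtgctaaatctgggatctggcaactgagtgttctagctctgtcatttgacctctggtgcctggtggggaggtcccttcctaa

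Reads on genes numbered 6228706 to 19031695 per rat, and mitochondrially encoded genes took 50.2% to 58.6% of them. Member rows together took 0.196% to 0.305%. Of the 99 rows, 81 had at least 10 counts in total and were tested, 18 were under 10 counts and 7 of these had none. The rows split at a wide gap, with 70 rows from 334 counts upward holding 99.9% of member reads and 11 tested rows at or under 87 counts. The limit of 300 counts that separates them was set after the data had been seen. These 70 rows carry 69 symbols, and Rpl30 is the 1 symbol with a pair of such rows. Rpl35a, Rpl37 and Rpl39l have no row of this depth. Reads that mapped to several places were not counted, and RefSeq lists 860 pseudogenes named for genes of this family, 6 of them for Rpl3 and 0 for Rpl3l. Rows of members with near-identical copies are therefore uncertain, and 9 RefSeq symbols that fit the rule, among them Rpl10, Rpl41 and Rps26, were not analysed here. Levels are given as CPM, the count of a row scaled to a common library size by TMM. They are not divided by transcript length, so values of different genes are not ranked against each other.

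**Figure D1:**
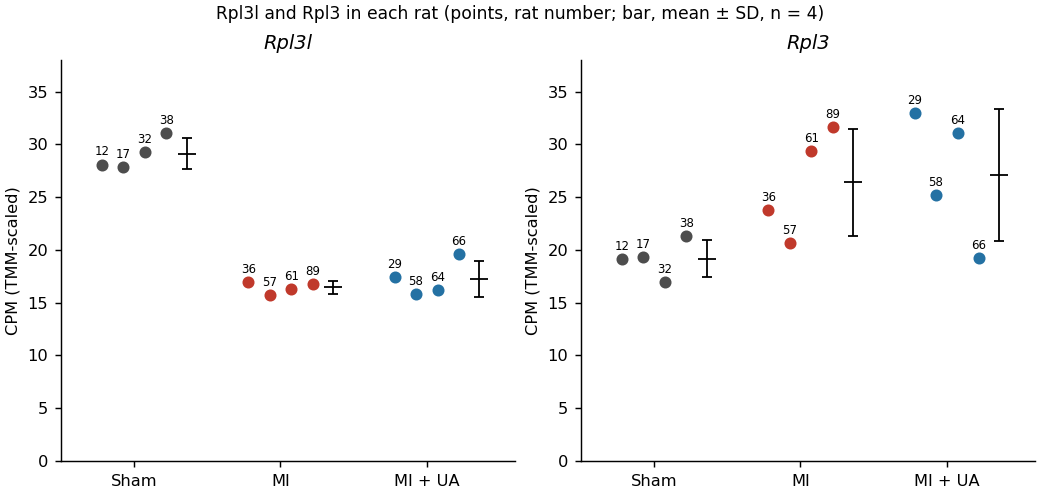
CPM of Rpl3l (left) and Rpl3 (right) in each rat, with rat numbers at the points and the mean ± SD of 4 rats at the bars. All 8 infarcted rats lie below all Sham rats for Rpl3l, and for Rpl3 rats 57 and 66 lie inside the Sham range.

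The question of MI versus Sham was which ribosomal protein mRNAs differed in the infarcted ventricle. Rpl3l was lower in MI, and no other member row passed the test in the fit used throughout. Rpl3l (ENSRNOG00000014641), the striated-muscle paralogue, had 28.1, 27.9, 29.3 and 31.1 CPM in Sham rats 12, 17, 32 and 38. It had 17, 15.7, 16.3 and 16.8 CPM in MI rats 36, 57, 61 and 89. The groups did not overlap, and within each group the rats lay close together, at 29.1 ± 1.49 CPM (SD over 4 rats) in Sham and 16.4 ± 0.597 CPM (SD over 4 rats) in MI. The log2 fold change was -0.82 (standard error, SE, 0.10, 95% interval -1.03 to -0.61, edgeR's quasi-likelihood test with Benjamini-Hochberg adjustment over all genes tested, adjusted p = 1.85e-05). Under 21 other settings, including each rat left out in turn, it lay between -0.84 and -0.76 and passed the test in all 21.

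Rpl3 (ENSRNOG00000016896), the form made in all tissues, had 19.1, 19.3, 17 and 21.3 CPM in Sham rats 12, 17, 32 and 38. In MI rats 36, 57, 61 and 89 it had 23.8, 20.7, 29.4 and 31.7 CPM. Only rat 57 of the MI rats lay inside the Sham range. The log2 fold change was 0.46 (SE 0.16, 95% interval 0.14 to 0.79), which missed the threshold (edgeR adjusted p = 0.0642, and 0.023 to 0.213 over 21 other settings). It passed in 5 of them, among them the fit of the Sham and MI rats alone (adjusted p = 0.0299) and the fits without rat 57 (0.55, adjusted p = 0.0276), rat 29 (0.48, adjusted p = 0.0441) or rat 66 (0.46, adjusted p = 0.0249).

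**Figure D2:**
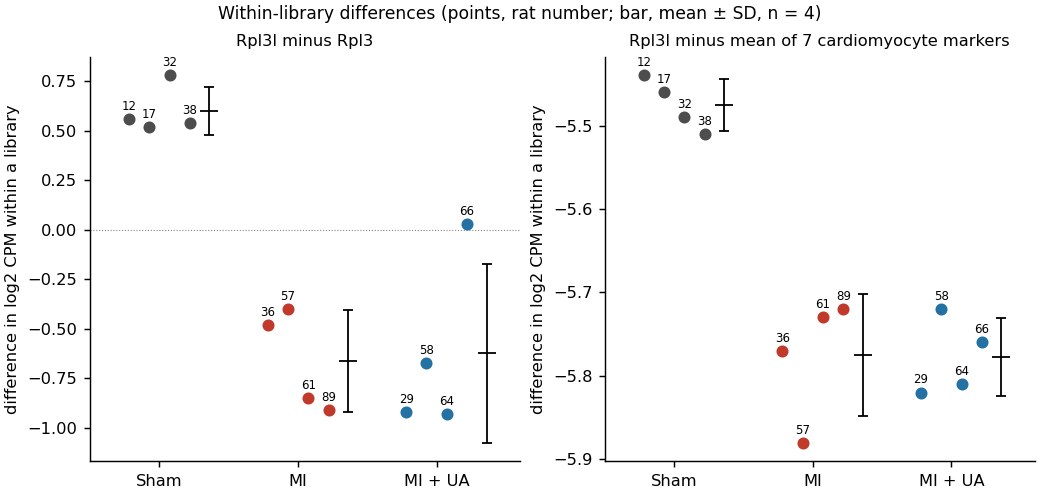
Difference in log2 CPM within each library between Rpl3l and Rpl3 (left) and between Rpl3l and the mean of 7 cardiomyocyte markers (right), with rat numbers at the points and the mean ± SD of 4 rats at the bars. The Sham rats lie above all infarcted rats in both panels, and rat 66 stands nearest to them on the left at 0.03.

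The difference between the paralogues within a library needs no scaling between libraries. On the log2 CPM scale, Rpl3l minus Rpl3 was 0.56, 0.52, 0.78 and 0.54 in Sham rats 12, 17, 32 and 38. It was -0.48, -0.40, -0.85 and -0.91 in MI rats 36, 57, 61 and 89. The sign differed between the groups in all 8 rats. The means were 0.60 ± 0.12 (SD over 4 rats) and -0.66 ± 0.26 (SD over 4 rats), a difference of -1.26 (exact permutation test, two-sided, p = 0.0286, which is the smallest that 4 rats against 4 allow, and 0.0429 adjusted over the 9 such tests made). As CPM is not per length, 0 on this scale does not mark equal numbers of transcripts. Counting the rows of 1 symbol together, other prior counts, rat 66 in MI and each rat left out kept the difference between -1.35 and -1.12.

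The makeup of the tissue differed between the same groups. All 7 cardiomyocyte markers tested were lower in MI (median log2 fold change -0.41), and their summed level was 11500 to 14200 CPM in Sham and 7860 to 8090 CPM in MI. Of 8 fibroblast markers, 6 were higher (median log2 fold change 1.07, summed level 1130 to 1440 CPM in Sham and 2190 to 3570 CPM in MI). Of 8 macrophage markers, 7 were higher (median log2 fold change 1.00, summed level 121 to 152 CPM and 246 to 397 CPM). Smooth muscle and pericyte markers had 4 of 6 higher, Schwann cell markers 1 of 4, lymphocyte markers 1 of 8 (Ptprc, on all leukocytes), endothelial markers 1 of 7 lower and adipocyte markers 0 of 3. Over all 18182 genes tested, 5.82% were higher and 5.53% lower. Of the counted reads, those on genes made up 46.9% to 48.3% in Sham and 43.3% to 44.8% in MI. The part of these shifts in the Rpl3l and Rpl3 values was not tested.

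Relative to the mean of the cardiomyocyte markers, Rpl3l was lower in MI. Minus the mean of the 7 markers, its log2 CPM was -5.48 ± 0.03 (SD over 4 rats) in Sham and -5.77 ± 0.08 (SD over 4 rats) in MI, without overlap. The difference was -0.30 (two-sided exact permutation p = 0.0286, and 0.0429 adjusted over 9 tests). Without Myh6, the main adult myosin heavy chain of the rodent heart and the marker that fell most, with a log2 fold change of -1.08, it was -0.39. Minus the mean of the 8 fibroblast markers, the log2 CPM of Rpl3 was -1.80 ± 0.21 (SD over 4 rats) in Sham and -2.46 ± 0.08 (SD over 4 rats) in MI, a difference of -0.66 (exact permutation p = 0.0286, and 0.0429 adjusted over 9 tests). This value depends on the markers taken, whose log2 fold changes ran from 0.19 (Dcn) to 2.65 (Postn). Pdgfra, at 0.49, and Tcf21, at 0.52, lay near the 0.46 of Rpl3. Both marker ratios were chosen with the data already seen and describe the values only. They do not separate fewer cells from less RNA per cell.

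**Figure D3:**
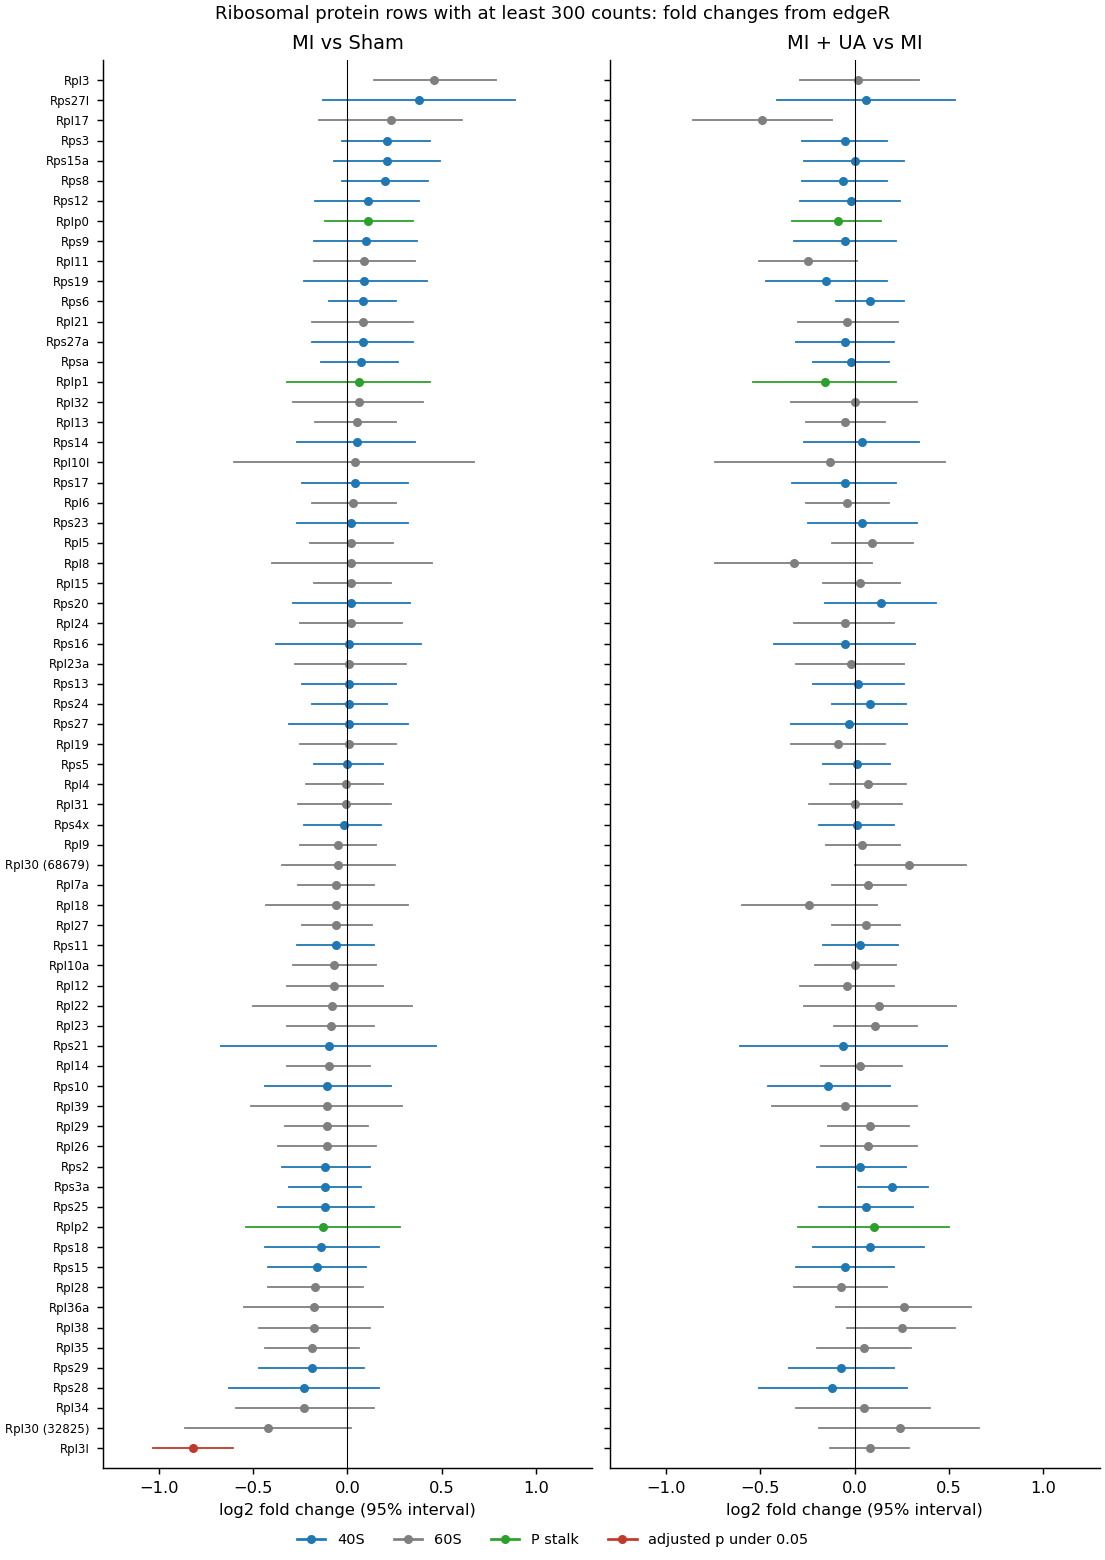
Log2 fold change of 69 of the 70 rows with at least 300 counts in MI versus Sham (left) and MI + UA versus MI (right), from edgeR, with points at the estimate, lines for the 95% interval and colours for the subunit. Rows are in the order of the left panel and the 2 rows of Rpl30 carry the last digits of their identifiers. Rpl3l is the only row in red, the colour of an adjusted p-value under 0.05.

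Across the whole set, 1 of 81 rows (1.23%) passed the test in MI versus Sham, where 11.4% of all genes tested did. Without adjustment, 4 rows (4.94%) had a p-value under 0.05, against 23.9% of all genes. The groups did not overlap at 2 rows (2.47%) against 15.7% of all genes, the second being a copy of Rpl39 with 16 counts in all, too few for the order of the groups to be read. The median log2 fold change was -0.01 over the 81 rows and 0.03 over all genes, and 40 rows (49.4%) lay above 0, against 53% of all genes. Among the 70 deep rows, 66 (94.3%) had a log2 fold change within 0.25 of 0, compared with 60% of the 11224 genes of the same depth. The 95% interval lay inside -0.5 to 0.5 for 57 of the 70 rows (81.4%) and for 46.5% of genes of that depth.

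**Figure D4:**
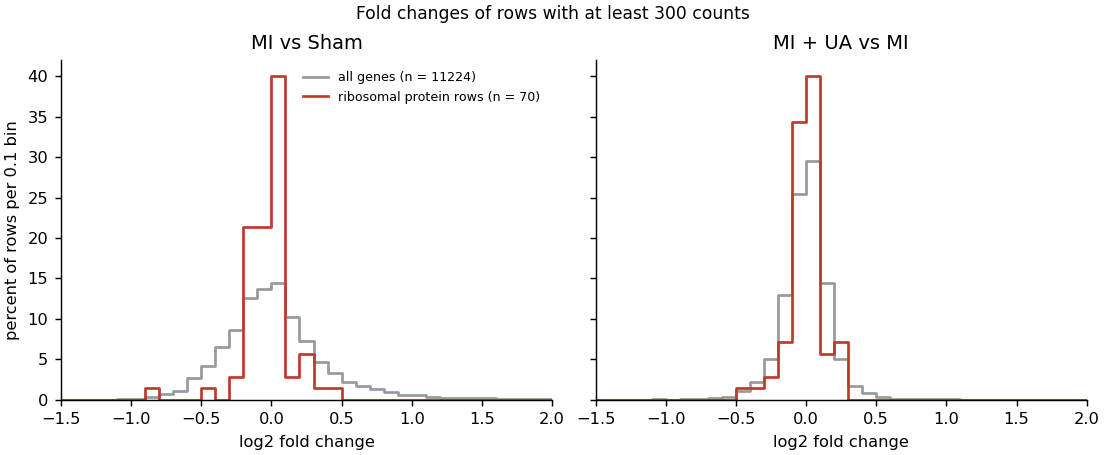
Share of rows in each 0.1 step of log2 fold change for MI versus Sham (left) and MI + UA versus MI (right), with the 70 ribosomal protein rows in red and all 11224 genes with at least 300 counts in grey. The lone step near -0.8 on the left is Rpl3l.

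Both subunits gave like values. The 30 rows of 40S genes had a median log2 fold change of 0.01 in MI versus Sham, the 37 rows of 60S genes -0.05 and the 3 rows of the P stalk, the acidic arm of the large subunit that recruits elongation factors, 0.06. For a difference between the subunits, P stalk rows were counted with the 60S rows, and Rpl3 and Rpl3l were left out. The mean log2 CPM of 40S rows minus that of 60S rows was then 0.13 ± 0.11 (SD over 4 rats) in Sham, 0.19 ± 0.02 (SD over 4 rats) in MI and 0.19 ± 0.05 (SD over 4 rats) in MI + UA. Summed over all members the level was 2390 ± 160 CPM (SD over 4 rats) in Sham, 2380 ± 251 CPM (SD over 4 rats) in MI and 2400 ± 239 CPM (SD over 4 rats) in MI + UA.

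Of the P stalk genes, Rplp0, its anchor and a common reference gene, had 66.2, 77.9, 66.8 and 80.0 CPM in Sham and 71.6, 74.2, 91.5 and 77.5 CPM in MI. These ranges overlapped (log2 fold change 0.11, standard error 0.11). Rplp1 ranged from 39.4 to 61.9 CPM in Sham and from 35.4 to 77.2 CPM in MI, with a log2 fold change of 0.06 and a 95% interval of -0.32 to 0.44. Rplp2 ranged from 6.90 to 14.3 CPM and from 7.60 to 12.2 CPM (log2 fold change -0.13, 95% interval -0.54 to 0.28). The sign of Rplp1 turned without rat 12 or rat 61 and with rat 66 counted in MI (-0.01), and that of Rplp2 without rat 36 or rat 38.

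Rpsa, the laminin receptor protein of the small subunit, had 82.7, 84.3, 93.8 and 88.0 CPM in Sham and 87.3, 83.6, 103 and 91.7 CPM in MI. The ranges overlapped, with a log2 fold change of 0.07 (SE 0.10). Rps6, the substrate of the kinase S6K, had 73.3 ± 3.51 CPM (SD over 4 rats) in Sham and 77.4 ± 5.87 CPM (SD over 4 rats) in MI, with a 95% interval of the log2 fold change of -0.10 to 0.26. Rps2 and Rps3a each had a log2 fold change of -0.12, with intervals that included 0. Rps2 lies beside Rpl3l in RefSeq, with only Ndufb10 between them, and the 95% interval of its log2 fold change was -0.35 to 0.12.

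The remaining paralogues varied more between rats. Rps27l had 2.13, 3.75, 3.54 and 2.86 CPM in Sham and 3.07, 4.55, 4.46 and 3.99 CPM in MI, overlapping ranges with a log2 fold change of 0.38 (95% interval -0.13 to 0.89, edgeR adjusted p = 0.376). Rpl10l had the largest coefficient of variation of the 70 rows in both infarcted groups, 38% in MI and 43.6% in MI + UA, where the median row had 13.9% and 14%. Its levels were 8.66, 5.05, 7.41 and 6.44 CPM in Sham and 8.77, 8.62, 8.20 and 3.10 CPM in MI, with rat 89 far below the other MI rats. Rpl10l had a log2 fold change of 0.04 with a wide interval, -0.60 to 0.67. Rpl10 has no row under its own symbol, and whether the Rpl10l row holds reads of Rpl10 was not tested. Rpl39l had 1 count over the 4 Sham rats and 4 over the MI rats, too few for a fold change to be read.

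**Figure D5:**
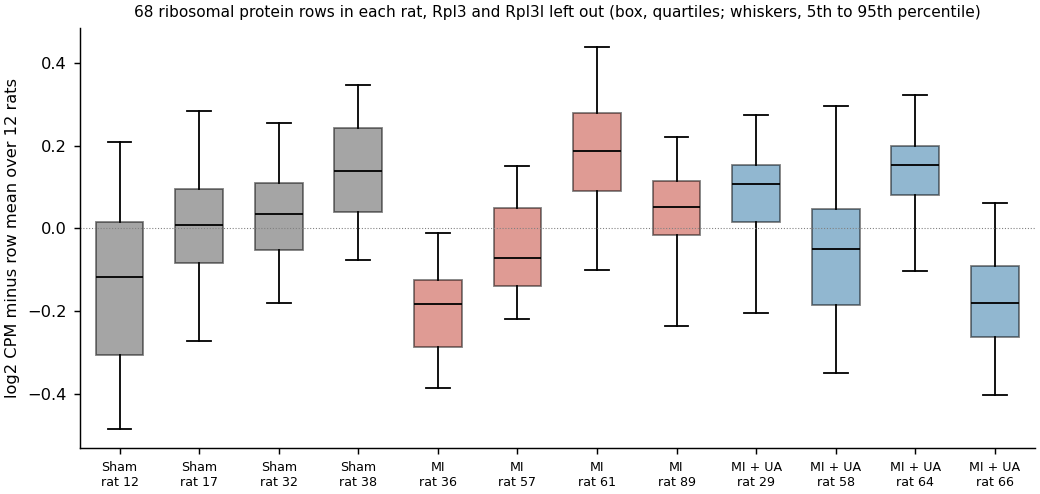
Log2 CPM minus the row's mean over 12 rats for the 68 deep rows other than Rpl3 and Rpl3l, by rat, with boxes for the quartiles, lines at the medians and whiskers from the 5th to the 95th percentile. Medians run from -0.18 in rats 36 and 66 to 0.19 in rat 61, and each group holds rats on both sides of 0.

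Within a group, most ribosomal protein rows were high or low in the same rats. Rat 38 had the highest level of its group at 37 of the 68 deep rows other than Rpl3 and Rpl3l, rat 61 at 46 and rat 64 at 35. Rat 12 was the lowest of its group at 41 rows, rat 36 at 53 and rat 66 at 42. The median deviation from the row's mean over all rats ran from -0.12 to 0.14 in Sham, -0.18 to 0.19 in MI and -0.18 to 0.15 in MI + UA on the log2 scale, as the plot of deviations by rat shows. The median log2 fold change of the members lay between -0.01 and 0.01 in the 3 comparisons, and between -0.07 and 0.12 over all other settings. These low rats were each the deepest library of their group, with 8958828 reads on genes in rat 12, 12743184 in rat 36 and 19031695 in rat 66. Rat 38, the highest of the Sham rats with a median deviation of 0.14, had 8841954 reads, and rat 29, at 0.11, had 17382116. The part of depth in these levels was not tested.

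For MI + UA versus MI, the question was whether urolithin A altered these mRNAs after infarction. No member row passed the test by edgeR or by DESeq2, and none of the 18182 genes did by edgeR (0%). Without adjustment, 5 of 81 rows (6.17%) had a p-value under 0.05, against 3.79% of all genes. The median log2 fold change was 0.01 for the members and 0.00 for all genes. Of the 70 deep rows, 65 (92.9%) had a log2 fold change within 0.25 of 0 and 56 (80.0%) a 95% interval inside -0.5 to 0.5, against 88.3% and 69.4% of genes of that depth. The 40S, 60S and P stalk rows had medians of -0.01, 0.02 and -0.09.

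Rpl3l had 17.4, 15.8, 16.2 and 19.6 CPM in MI + UA rats 29, 58, 64 and 66, a range that overlapped that of the MI rats. Rpl3l had a log2 fold change of 0.08 against MI, with a 95% interval of -0.13 to 0.29. Rpl3 had 33.0, 25.2, 31.1 and 19.2 CPM in the same rats, with rat 66 inside the Sham range and the other three inside or above the MI range. Rpl3 had a log2 fold change of 0.02 against MI (95% interval -0.29 to 0.34), and the sign turned when rat 36, 57, 29 or 64 was left out. With rat 66 counted in MI, that of Rpl3 was 0.26.

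Rpl3l minus Rpl3 was -0.92, -0.67, -0.93 and 0.03 in MI + UA rats 29, 58, 64 and 66 on the log2 CPM scale. The mean was -0.62 ± 0.45 (SD over 4 rats), a difference from MI of 0.04 (two-sided exact permutation p = 1, also after adjustment over 9 tests). With rat 66 counted in MI the difference was -0.32 (exact permutation p = 0.232), and without rat 66 it was -0.18. It also fell below 0 without rat 61 (-0.03) or rat 89 (-0.05). Minus the cardiomyocyte markers, Rpl3l was at -5.78 ± 0.05 (SD over 4 rats), against -5.77 in MI. Of the markers of the 8 cell types listed above, 0 passed the test in MI + UA versus MI.

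The 5 rows with an unadjusted p-value under 0.05 each had an adjusted p of 1 in edgeR's test. Rpl17, at the exit of the nascent chain tunnel, had 22, 18.2, 15 and 24.7 CPM in MI and 15.7, 13.1, 15.6 and 13.1 CPM in MI + UA. Only rat 61 lay within the MI + UA range, and the log2 fold change was -0.49 (SE 0.18). The deeper row of Rpl30 (ENSRNOG00000068679), a 60S protein, had 13.7, 16.8, 17.2 and 14.6 CPM in MI and 18.1, 23.5, 18.5 and 16.5 CPM in MI + UA, with a log2 fold change of 0.29 (SE 0.14). Rps3a, a 40S protein, had 72.7, 69.8, 77.9 and 85.1 CPM and 80.4, 94.8, 96.2 and 82.0 CPM, with a log2 fold change of 0.20 (SE 0.09). In both, the ranges overlapped.

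The other 2 rows were sparse. Rpl39l had 2, 1, 1 and 0 counts in MI rats 36, 57, 61 and 89 and 7, 2, 2 and 10 counts in MI + UA rats 29, 58, 64 and 66. It was the 1 row whose groups did not overlap in CPM (1.23% of rows, against 2.34% of all genes), but most of its counts, through which it reached the limit for testing, lie in the MI + UA rats, and nothing is read from it. A copy of Rpl39 (ENSRNOG00000034237) had 1 count over the MI rats and 4, 3, 0 and 2 counts in the MI + UA rats. Rats 29 and 66, which hold most of these counts, were the deepest libraries, with 17382116 and 19031695 reads on genes.

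MI + UA was also compared with Sham, the same Sham rats that enter MI versus Sham. Rpl3l was lower, and it is the only row read as a change. Of the 81 rows, 1 passed as lower and 1, a sparse copy of Rpl30 from which nothing is read, as higher (2.47% in all), where 4.27% of all genes were lower, 5.16% higher and 9.44% passed in all. Rpl3l had a log2 fold change of -0.74 (SE 0.10, edgeR's quasi-likelihood test with Benjamini-Hochberg adjustment, adjusted p = 6.46e-05), and it passed under all 21 other settings. Rpl3l minus Rpl3 differed from Sham by -1.22 (two-sided exact permutation p = 0.0286, and 0.0429 adjusted over 9 tests). This call was lost when any of the Sham rats 12, 17, 32 or 38 was left out (exact permutation p = 0.0571 each), with differences from -1.25 to -1.16. In these rats 7 of 7 cardiomyocyte markers were lower and 6 of 8 fibroblast markers higher than in Sham, and Rpl3l minus the mean of the cardiomyocyte markers differed from Sham by -0.30 (exact permutation p = 0.0286). Rpl3 had a log2 fold change of 0.49 (SE 0.16, edgeR adjusted p = 0.0545) and passed under 7 of 21 settings, among them DESeq2 (adjusted p = 0.0427) and the fits without rat 57 (adjusted p = 0.0412), rat 89 (adjusted p = 0.0493) or rat 66 (0.63, adjusted p = 0.00486).

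The copy of Rpl30 (ENSRNOG00000005975) had 29 counts in all. It had 0 counts in every Sham rat, 6, 0, 3 and 1 counts in MI rats 36, 57, 61 and 89, and 6, 2, 2 and 9 counts in MI + UA rats 29, 58, 64 and 66. It reached the limit of 10 counts only through the infarcted rats, so its test against Sham had to lean one way and is no result. With filterByExpr or with the rows of a symbol summed, 0 member rows were higher. The groups did not overlap at 5 of 81 rows (6.17%), against 14.3% of all genes, and 4 of these were rows under 300 counts, from which no order is read.

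Rows that share a symbol were mostly a deep row and sparse copies, but Rpl35a and Rpl37 had no deep row. Of the 72 symbols, 16 were borne by more than 1 row. For Rps4x, whose deep row had 54.5 ± 5.13 CPM (SD over 4 rats) in Sham, the copy had 0.448 ± 0.0561 CPM (SD over 4 rats). Its log2 fold change in MI versus Sham was 0.73 with a 95% interval of -0.30 to 1.76, while the deep row of Rps4x had -0.02 with -0.23 to 0.18. Rpl30 had a second deep row (ENSRNOG00000032825), at 8.28, 6.49, 6.40 and 7.99 CPM in Sham and 3.44, 5.65, 5.81 and 7.17 CPM in MI, overlapping ranges with a log2 fold change of -0.42 (95% interval -0.86 to 0.02, edgeR adjusted p = 0.233). The copies of Rpl8, Rpl9, Rpl12, Rpl21, Rpl36a, Rpl37, Rpl39 and Rps20 that were tested had 12 to 50 counts each over the 12 rats.

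Other genes of the translation machinery were read from lists, and none of their genes passed the test in MI + UA versus MI. Of 6 ribosomal proteins and relatives that the symbol rule leaves out, 0 passed in MI versus Sham, where 11.4% of all genes did. Their median log2 fold change was -0.07. Rack1, the scaffold on the 40S head, had 92.9 ± 7.96 CPM (SD over 4 rats) in Sham and 91.6 ± 11.3 CPM (SD over 4 rats) in MI. Rpl22l1, the paralogue of Rpl22, had 4.57 ± 0.705 CPM (SD over 4 rats) and 3.96 ± 1.11 CPM (SD over 4 rats), a log2 fold change of -0.22 (edgeR adjusted p = 0.609).

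Among 10 genes of a list for elongation and termination, which holds elongation factors, the release factors Etf1 and Gspt1, the kinase Eef2k and the synthetase complex protein Eef1e1, 1 passed in MI versus Sham, where 11.4% of all genes did, and the median was -0.04. This was Eef1a2, the form of the elongation factor eEF1A made in muscle and neurons, which fell from 323 ± 24.1 CPM (SD over 4 rats) to 239 ± 19.1 CPM (SD over 4 rats), with 234 ± 24.2 CPM (SD over 4 rats) in MI + UA. The ranges of Sham (290 to 347 CPM) and MI (218 to 256 CPM) did not overlap, and the log2 fold change was -0.43 (SE 0.09, edgeR adjusted p = 0.00273, passed in 21 of 21 other settings). The cardiomyocyte markers, with their median of -0.41, were lower in the same rats, and the part of this in the Eef1a2 value was not tested. Eef1a1, the other form of eEF1A, was listed but had no row that was tested, so eEF1A as a whole was not read.

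Of 33 initiation factor and poly(A) binding protein genes, 1 was higher and 3 lower in MI, with a median of -0.16, and 4 of 33 is a share near the 11.4% of all genes. Pabpc1, the main poly(A) binding protein, had a log2 fold change of 0.28, and Pabpc4, Eif3j and Eif3i had -0.26, -0.28 and -0.55. Of 46 genes for ribosome assembly, rRNA processing and RNA polymerase I, 1 was lower, Nop10 of the H/ACA particles (-0.34), against 5.53% of all genes lower, and the median was 0.06. Of 19 genes that link growth signals to ribosomal protein mRNAs, 1 was higher and 3 lower, against 5.82% and 5.53% of all genes, with a median of -0.12.

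The higher gene was Myc, a transcription factor that drives ribosome production, at 3.77 ± 1.20 CPM (SD over 4 rats) in Sham, 11.1 ± 5.88 CPM (SD over 4 rats) in MI and 6.49 ± 1.88 CPM (SD over 4 rats) in MI + UA. In MI versus Sham Myc had a log2 fold change of 1.52 (SE 0.32, edgeR adjusted p = 0.00314), between 1.16 and 1.75 without 1 rat, and against MI it was -0.75 in MI + UA (edgeR adjusted p = 1), between -0.99 and -0.39 without 1 rat, the smaller value being without rat 57. The lower genes were Mtor, the kinase itself (-0.35), Cnbp, a protein that binds TOP mRNAs (-0.34), and Eif4ebp2, a repressor of cap-dependent initiation (-0.31). Eef1a2, Myc and Cnbp passed in 21 of 21 other settings. The calls for Pabpc1, Pabpc4, Eif3j, Eif3i, Nop10, Mtor and Eif4ebp2 held in 12 to 19 settings, and each was lost without at least 1 rat, with adjusted p-values up to 0.133, 0.148, 0.143, 0.0606, 0.12, 0.0674 and 0.0586.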

How the data were processed

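RNA from 12 rat hearts was sequenced as paired, strand-specific libraries after depletion of ribosomal RNA, although the sample labels name polyA RNA. Per the submitters' processing notes, reads were mapped with STAR 2.6.1c to mRatBN7.2 and counted with HTSeq. The strand setting is not given in the sources used here. The authors deposited raw counts of reads per Ensembl gene, without normalization. The 5 summary lines of the counter stayed out of library sizes. Genes with at least 10 counts in total (18182 of 30560) were tested with edgeR 4.0.16 (R 4.3.3): TMM scaling, 3 groups in one quasi-likelihood fit and Benjamini-Hochberg adjustment over all genes, called at 0.05. DESeq2 1.42.0 was an alternative. Log2 CPM used a prior count of 1. Single values were compared with two-sided exact permutation tests over the 70 groupings of 8 rats. Named genes were the paralogues, P stalk genes and Rpsa, rows called in MI versus Sham or with an unadjusted p under 0.05 in MI + UA versus MI, the 5 rows with the highest and the 5 with the lowest CPM, rows sharing a symbol, and called genes of the other lists, and 1 member so named is not reported here. The members and lists were chosen with earlier results of these data known. The scripts were tested on simulated data. Promoters came from RefSeq (GRCr8), matched by symbol. Figures used matplotlib 3.10.9. A further MI + UA library, set aside by the authors, was not analysed here.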

Additional observations from a re-analysis of the deposited data

Results flagged for a closer look

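In a group of 4 rats, a rat was taken as standing apart when its gap to the nearest other rat, divided by the range of the group, exceeded Dixon's critical value for 4 samples. Of 87 groups examined, 4 held such a rat, where chance gives about 1 in 20, or 4.35. Rpl10l log2 CPM in MI was 1.68 in rat 89 and 3.05 to 3.15 in the other MI rats (ratio 0.935). Without rat 89 the log2 fold change of Rpl10l in MI versus Sham was 0.31 in place of 0.04 (edgeR adjusted p = 0.561). Rpl3l minus Rpl3 was 0.781 in Sham rat 32 and 0.524 to 0.557 in the other Sham rats (ratio 0.872). With each rat left out in turn, rat 32 included, its difference between MI and Sham lay between -1.35 and -1.18. Pabpc4 log2 CPM in MI was 7.42 in rat 57 and 7.30 to 7.31 in the other MI rats (ratio 0.856), and Eif3i log2 CPM in MI was 3.29 in rat 89 and 3.03 to 3.07 in the others (ratio 0.855).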

How the results depend on the processing

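No paired analysis was possible because the replicate numbers are the numbers of single rats, and no rat is in more than 1 group. The alternatives were DESeq2, the 2 groups compared alone, filterByExpr or no filter, other scalings, rat 66 in MI, rows of a symbol summed and each rat left out. The count of members lower was the same under all of them. The median member log2 fold change ran from -0.07 to 0.04 in MI versus Sham, -0.06 to 0.12 in MI + UA versus MI and -0.05 to 0.06 in MI + UA versus Sham. Members higher in MI versus Sham numbered 0, but 1 with only the 2 groups or no filter (Rpl3) and 1 with rat 66 in MI (a copy of Rpl30), and 0 to 1 without single rats. In MI + UA versus Sham they numbered 1, but 2 with only the 2 groups or no filter, 0 with filterByExpr or rows summed, which leave out or merge the sparse copy of Rpl30, and 0 to 2 without single rats. With rat 66 in MI, signs turned for Rplp1 in MI versus Sham (-0.01) and, in MI + UA versus MI, for Rpl3l (-0.06) and Rpl3l minus Rpl3 (-0.32), and the cause was not tested.

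Without single rats, the log2 fold change in MI versus Sham ran from -0.10 to 0.31 for Rpl10l, -0.18 to 0.22 for Rplp1, -0.31 to 0.03 for Rplp2 and -0.07 to 0.04 for the deep row of Rps4x. In MI + UA versus MI it ran from -0.10 to 0.17 for Rpl3, which had 0.26 with rat 66 in MI, and Rpl3l minus Rpl3 ran from -0.18 to 0.14. In MI + UA versus Sham that difference ran from -1.44 to -1.12, with exact permutation p-values up to 0.0571 when a Sham rat was left out. Depth limits the sparse copies, from which nothing is read, and each comparison has 4 animals a side.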
